A study of Mus musculus with 12 samples.

Results

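The respiratory chain genes were the 98 of 36144 genes in the expression table whose symbols name a subunit of oxidative phosphorylation complexes I to V. They were chosen by symbol pattern: Nduf, Sdh, Uqcr, Cyc1, Cox4 to Cox8 and Atp5 for the 85 members encoded in the nucleus, and the mt- prefix for the 13 members encoded in the mitochondrial genome. The nuclear members made up 35 genes of complex I, 4 of complex II, 9 of complex III, 20 of complex IV and 17 of complex V. The mitochondrial genome supplied 7 genes of complex I, 1 of complex III, 3 of complex IV and 2 of complex V. Ndufa4 was counted with complex IV, of which it is known to be a subunit. The patterns also take in Cox7a2l, known as a factor of supercomplexes of complexes III and IV, and Atp5s, which is not a structural subunit of the ATP synthase. Cox6c2, annotated as a processed pseudogene, was counted with complex IV by its symbol. The function of Cox7a2l in the mouse strain used was not tested.

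Complexes I to IV hand electrons from NADH and succinate to oxygen, complexes I, III and IV pump protons out of the mitochondrial matrix as they do so, and complex V, the ATP synthase, uses the returning protons to make ATP. The mitochondrial members are cut from long transcripts of the mitochondrial DNA, whose synthesis needs the factor encoded by Tfam. Many nuclear members are known targets of the transcription factors encoded by Nrf1, Gabpa and Esrra, which work with the coactivator encoded by Ppargc1a, a gene that cAMP induces in the fasting liver.

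RNA was measured in primary hepatocytes of a WT C57/Bl6J mouse, in 12 poly-A-selected libraries, 3 in each of 4 groups. All cells spent 16 h in serum-free medium. FDMn cells had 6 µM MnCl2 in that medium and received 10 µM forskolin, which raises cAMP, with 1 µM dexamethasone, a glucocorticoid, for the last 5 h. FDI cells received insulin (100 nM in the design text, while the protocol label also mentions 1 nM) 1 h before the same forskolin and dexamethasone, FD cells received forskolin and dexamethasone alone, and Mock cells received none of these agents. The labels do not say whether the libraries of a group came from separate cultures or animals, so p-values measure the spread between these libraries, which may be technical. Levels are given in TPM (a transcript abundance scaled to transcript length and to the library total), and the read depth behind them is unknown. Changes are on the log2(TPM + 1) scale with their standard errors, and a gene was called at an adjusted p under 0.05 in limma, over 11544 genes with at least 1 TPM in at least 3 libraries. The comparisons with FD share the 3 FD libraries, so they are not independent of each other. Separation of groups is given mostly for genes already called. It was not counted over all genes and is no added support for a call.

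The 8 hepatocyte markers summed to between 29108 and 39623 TPM in the 12 libraries, against at most 37.2 TPM for the endothelial list, 14.7 for the erythroid, 8.03 for the Kupffer cell, 6.21 for the stellate and 0.409 for the lymphocyte list, where Nkg7 was at 0 throughout. By group, the hepatocyte sums were 33995 to 34632 TPM in FDMn, 29108 to 29716 in FDI, 29807 to 39623 in FD and 31195 to 32358 in Mock libraries. The 6 cholangiocyte markers, of which 3 passed the filter, summed to 1412 to 1606 TPM in FDMn, 762 to 809 in FDI, 732 to 803 in FD and 1082 to 1126 in Mock libraries. The part of the hepatocyte and cholangiocyte sums in the results was not tested. In such bulk samples, fewer cells of a type and less RNA per cell cannot be told apart.

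The FD libraries did not lie together for the nuclear members. Of the 79 nuclear members tested, 44 in FD replicate 1 (55.7%) and 53 in FD replicate 2 (67.1%) were nearer the Mock mean than the mean of FDI and FDMn libraries, against 17 in FD replicate 3 (21.5%). Over all genes the shares were 34.4%, 35.8% and 28.6% in FD replicates 1, 2 and 3. The median SD of a nuclear member on the log2 scale was 0.063 in FDMn, 0.094 in FDI, 0.134 in FD and 0.071 in Mock libraries. Ndufs5, an accessory subunit of complex I, shows the pattern most plainly: 343, 335 and 208 TPM in FD replicates 1, 2 and 3, between 212 and 276 TPM in the FDMn and FDI libraries, and 334, 355 and 322 TPM in Mock libraries. FD replicates 1 and 2 thus lay in the Mock range and FD replicate 3 just below the range of FDMn and FDI. No label sets this library apart, so each comparison with FD is given below also without it.

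**Figure D1:**
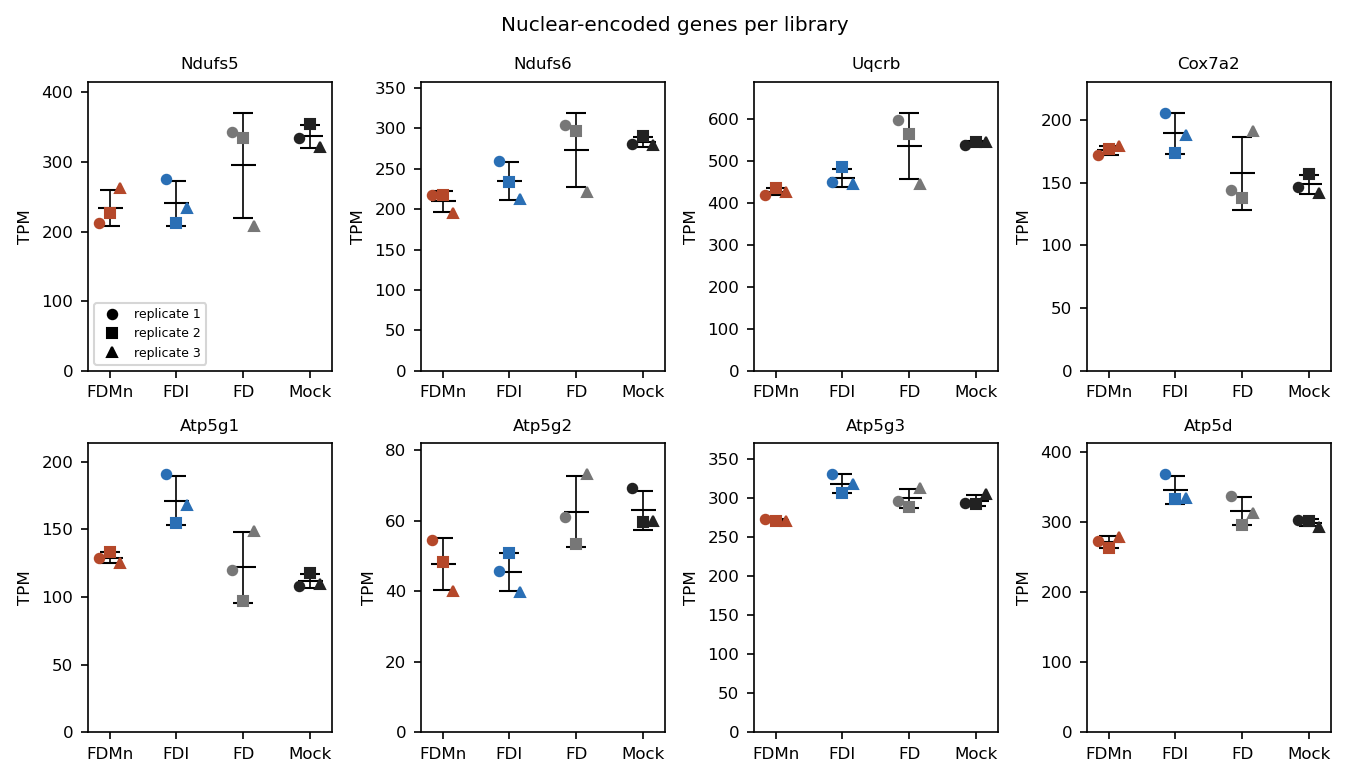
TPM (y axis, from 0) of 8 nuclear-encoded respiratory chain genes in each library, by group; point shapes are replicates 1 to 3, and the horizontal line with bars is the mean with its SD (n = 3). In Ndufs5, Ndufs6 and Uqcrb, FD replicate 3 (208, 221 and 445 TPM) sits with the FDMn and FDI libraries and FD replicates 1 and 2 sit with Mock; Atp5g1 is highest in the 3 FDI libraries, and Atp5d is lowest in the 3 FDMn libraries.

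Of the nuclear members, 79 passed the filter. The 6 that did not all had symbols of complex IV: Cox4i2, Cox6b2, Cox6c2, Cox7b2, Cox8b and Cox8c. Of these, Cox6c2 is annotated as a processed pseudogene. None of these 6 exceeded 1.07 TPM in any library, and Cox8c was listed at 0 in all 12. Cox6a2 and Cox7a1, the isoforms known from heart and skeletal muscle, passed the filter but stayed at or below 1.87 TPM in FDMn, FDI and FD libraries and 2.04 TPM in Mock libraries for Cox6a2, and at or below 5.45 TPM for Cox7a1. Their liver-type counterparts Cox6a1 and Cox7a2 lay between 360 and 443 TPM and between 138 and 206 TPM. In Mock cells the highest nuclear levels were those of Uqcrb, a complex III subunit, at 542 ± 3.85 TPM (SD, n = 3), and Atp5b, the catalytic beta subunit of complex V, at 471 ± 21.4 TPM. The sum over the nuclear members was 12247 ± 141 TPM in FDMn, 13555 ± 629 in FDI, 13031 ± 575 in FD and 12720 ± 136 in Mock libraries, with FDMn lowest and FDI highest.

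The 13 mitochondrial members together took 15.5%, 14.7% and 14.9% of all TPM in FDMn libraries, 10.8%, 13.6% and 12.7% in FDI, 13.2%, 15.4% and 14.7% in FD, and 12.3%, 12.9% and 12.6% in Mock libraries. The FDMn range lay above the FDI and the Mock range, while FD overlapped FDMn and FDI. The ratio of the mitochondrial to the nuclear sum was 12.3 ± 0.463 in FDMn, 9.15 ± 1.42 in FDI, 11.1 ± 1.21 in FD and 9.92 ± 0.329 in Mock libraries (SD, n = 3). FDI replicate 1, with the lowest mitochondrial sum (107867 TPM) and the highest nuclear sum (14280 TPM), set much of the FDI spread.

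**Figure D2:**
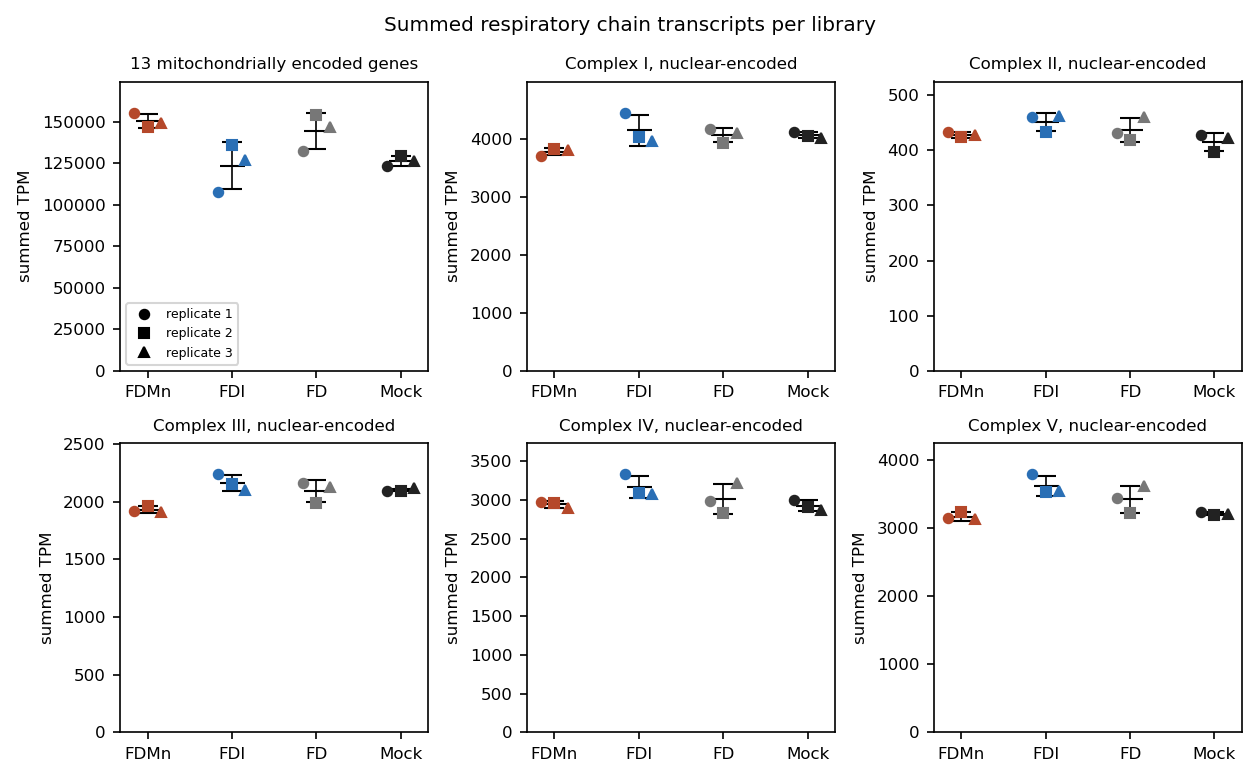
Summed TPM (y axes, from 0) of the 13 mitochondrially encoded genes and of the nuclear-encoded genes of each complex, per library and group, with the mean and SD (n = 3). Mitochondrial sums run from 146753 to 155246 TPM in FDMn libraries and from 123122 to 129133 TPM in Mock libraries; the nuclear sums of complexes I, III, IV and V are lower in every FDMn library than in any FDI library.

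The mitochondrial members lie close together, and 4 pairs overlap, which bears on how reads can be split between them. mt-Atp6 and mt-Co3 share 1 base. The ends of the other pairs are given here 5′ to 3′ on the gene's own strand, from GENCODE transcripts on GRCm38, with capitals for the bases that the pair shares (or, for the last pair, that pair with each other on opposite strands). The mt-Atp8 and mt-Atp6 frames share 43 bases and the mt-Nd4l and mt-Nd4 frames 7 bases, and each of these pairs is known to be carried on a single mRNA. The mt-Nd5 and mt-Nd6 genes face each other and share 14 bases at their ends.
mt-Atp8 end, chrM:7900-7969, plus strand: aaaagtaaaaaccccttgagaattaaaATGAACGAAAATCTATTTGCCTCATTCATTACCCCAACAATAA
mt-Atp6 start, chrM:7927-7996, plus strand: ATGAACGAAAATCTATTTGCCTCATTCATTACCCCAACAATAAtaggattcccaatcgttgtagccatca
mt-Nd4l end, chrM:10134-10173, plus strand: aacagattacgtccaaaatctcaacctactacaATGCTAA
mt-Nd4 start, chrM:10167-10206, plus strand: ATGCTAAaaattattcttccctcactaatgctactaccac
mt-Nd5 end, chrM:13526-13565, plus strand: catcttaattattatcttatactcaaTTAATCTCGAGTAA
mt-Nd6 end, chrM:13552-13591, minus strand: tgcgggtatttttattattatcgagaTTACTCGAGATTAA

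Despite the shared mRNA, mt-Atp8 was listed above mt-Atp6 in every group: 24777 ± 662 against 17692 ± 557 TPM in FDMn, 18890 ± 2962 against 13229 ± 928 in FDI, 20059 ± 3023 against 14624 ± 840 in FD and 18763 ± 99.6 against 14062 ± 673 in Mock libraries (SD, n = 3). Their annotated transcripts have 204 and 681 bases, and 7.47% and 99.5% of their 31-base words also occur in other genes. The part of length and of shared words in this gap was not tested. mt-Nd4l, at 9159 ± 553 TPM in Mock cells, was closer to its partner mt-Nd4, at 10981 ± 426 TPM. mt-Nd6, a complex I gene and the only member on the minus strand of the mitochondrial genome, had the lowest level, 51.2 to 188 TPM over the 12 libraries. Its mRNA is known from human cells to carry little poly(A) tail, and no label gives the use of strand in the quantification, so reads from mt-Nd6 and from RNA of the opposite strand cannot be told apart. mt-Co1, the catalytic subunit of complex IV, has a nuclear copy, the unprocessed pseudogene Gm29216 (chr1:24615706-24616197, minus strand, GRCm38), and 97.2% of this copy's 31-base words are also in mt-Co1. The table lists Gm29216 at 8319 to 13645 TPM, beside 14597 to 22774 TPM for mt-Co1. How reads were shared between the 2 was not tested, so mt-Co1 is given below with and without the copy. The 6 other such copies, of mt-Co2, mt-Co3, mt-Atp6, mt-Nd3, mt-Nd4 and mt-Nd4l, were at or near 0, except Gm28439, a copy of part of mt-Nd4, at 170.2 TPM in FD replicate 2 and 18.84 TPM in FD replicate 3.

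The comparison of FD with Mock asks what forskolin and dexamethasone did to untreated cells. Among the mitochondrial members 5 were higher in FD cells, mt-Nd5 with the smallest p, and mt-Nd3 was lower. Few nuclear members were called. Of all genes tested, 41.1% were called, 11.2% higher and 29.9% lower in FD. Of the 79 nuclear members, 4 rose and 1 fell, with a median change of 0.04 against -0.15 over all genes. Of the 13 mitochondrial members, 5 rose and 1 fell, with a median of 0.20. Without FD replicate 3 the mitochondrial counts were 4 and 1, and with it alone for FD 3 and 0. After median-of-ratios scaling 33 nuclear members were called higher and none lower, and 11 mitochondrial members higher and none lower. Of the 11544 genes tested, 2059 were then higher and 1972 lower. The median of all genes lay 0.15 below 0 on the TPM scale and at 0 under median-of-ratios scaling. A change of a member relative to the median gene is therefore about 0.15 more than the value given, and mt-Nd3 stayed below 0 under that scaling without passing the test.

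mt-Nd5, a core proton-pumping subunit of complex I, had 8426, 10090 and 9330 TPM in FD libraries and 5857, 6437 and 6654 TPM in Mock libraries. Every FD library was above every Mock library, and the change was 0.55 ± 0.11 (limma, adjusted p = 0.0013), a call that held in each of the 17 alternatives tried. mt-Nd1, the complex I subunit at the quinone-binding channel, had 12655, 14342 and 12844 TPM in FD libraries and 10727, 11119 and 11044 TPM in Mock libraries, again with no overlap (0.27 ± 0.07, adjusted p = 0.0060). mt-Co3, a core subunit of complex IV, had 8363, 7954 and 9067 TPM in FD libraries and 7175, 7063 and 7394 TPM in Mock libraries (0.23 ± 0.06, adjusted p = 0.010). The calls of mt-Nd1 and mt-Co3 held without each single library. mt-Co2, which carries the copper site that takes electrons from cytochrome c, was higher by 0.26 ± 0.09 (adjusted p = 0.039), with overlapping groups: 9164, 11686 and 11606 TPM in FD and 8888, 9305 and 8699 TPM in Mock libraries. mt-Nd6 was higher by 0.88 ± 0.30 (adjusted p = 0.032), with 78.4, 188 and 105 TPM in FD libraries against 51.2, 66.5 and 70.5 TPM in Mock libraries. Both calls were lost when single libraries were left out: mt-Co2 without FD replicate 2 or 3 or any Mock library (adjusted p between 0.057 and 0.13), and mt-Nd6 without FD replicate 2 or Mock replicate 1 or 2 (between 0.057 and 0.12).

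mt-Nd3, a small complex I subunit, went the other way. Its annotated transcript has 348 bases, and 98.1% of its 31-base words also occur in other genes. The gene had 1162, 1312 and 1517 TPM in FD libraries and 1683, 1632 and 1620 TPM in Mock libraries, so that all FD libraries were below all Mock libraries (-0.31 ± 0.09, adjusted p = 0.012). FD replicate 3 was nearest to Mock, and with that library alone for FD the call was lost, whereas without it the change was -0.41 ± 0.07 (adjusted p = 0.0011). The other 7 mitochondrial members did not pass the test: 0.06 for mt-Atp6, 0.09 for mt-Atp8, 0.15 for mt-Cytb, 0.16 for mt-Co1, 0.17 for mt-Nd2, 0.20 for mt-Nd4 and 0.28 for mt-Nd4l. Measured as a share of the mitochondrial sum, mt-Nd5 took 6.42 ± 0.111% in FD and 5.00 ± 0.257% in Mock libraries, and mt-Nd3 0.877%, 0.851% and 1.03% in FD and 1.37%, 1.26% and 1.28% in Mock libraries. With the 13 values rescaled to an equal sum in each library, these were the only calls among them: 0.36 ± 0.05 for mt-Nd5 (adjusted p = 0.00013) and -0.51 ± 0.08 for mt-Nd3 (adjusted p = 0.00037). The mitochondrial sum itself was 144481 ± 11000 TPM in FD and 126169 ± 3006 TPM in Mock libraries.

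**Figure D3:**
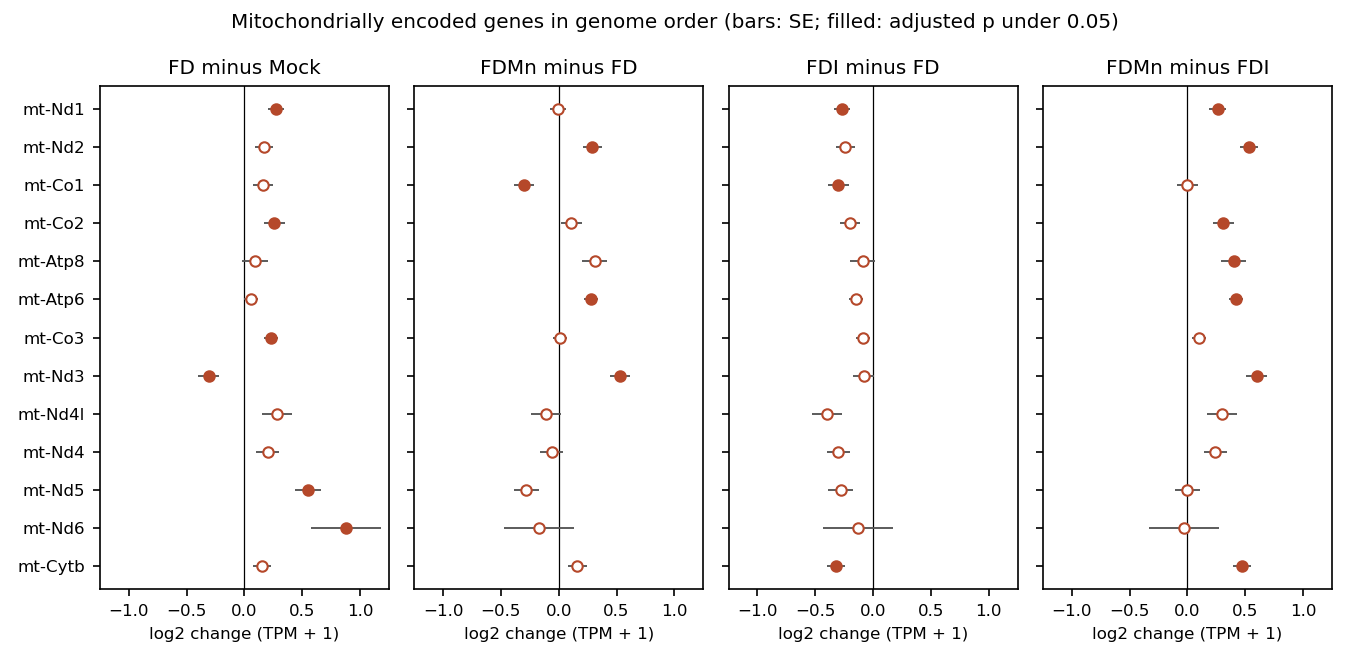
Log2 change (x axes, on the TPM + 1 scale) of the 13 mitochondrially encoded genes, listed in the order of the mitochondrial genome, in the 4 comparisons; bars are standard errors and filled points passed an adjusted p of 0.05. In FD minus Mock mt-Nd5 is at 0.55 and mt-Nd3 at -0.31, all 13 values are below 0 in FDI minus FD, and 7 are called above 0 in FDMn minus FDI.

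Among the nuclear members, 3 complex I genes were called higher in FD. Ndufb4, an accessory subunit, had 17.1, 18.1 and 28.9 TPM in FD libraries and 15.3, 13.5 and 14.4 TPM in Mock libraries (0.50 ± 0.16, adjusted p = 0.023). FD replicate 3 was far above the others, but the call remained without it (0.27 ± 0.10, adjusted p = 0.046), and 19.1% of the gene's 31-base words also occur in other genes. Ndufs1, the largest iron-sulfur subunit, had 46.5, 51.1 and 41.3 TPM in FD libraries and 37.8, 39.0 and 36.7 TPM in Mock libraries (0.28 ± 0.08, adjusted p = 0.015). Ndufb11, an accessory subunit, had 68.8 ± 3.21 TPM in FD libraries and 60.1 ± 4.46 TPM in Mock libraries (0.20 ± 0.07, adjusted p = 0.043). In complex IV, Cox7c, a small structural subunit, was higher, with 231, 209 and 211 TPM in FD and 174, 181 and 196 TPM in Mock libraries (0.24 ± 0.08, adjusted p = 0.028). Cox7a2l fell, with 290, 261 and 241 TPM in FD and 299, 313 and 298 TPM in Mock libraries (-0.20 ± 0.07, adjusted p = 0.036).

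None of these 5 pairs of groups overlapped, which was not counted over all genes, and each call was lost in at least 2 of the 6 fits that leave out a library. The adjusted p without Mock replicate 2 or 3 was 0.070 and 0.053 for Ndufb4. For Ndufs1 it was 0.060 without FD replicate 2 and 0.051 without Mock replicate 3. It was between 0.072 and 0.10 for Cox7c (FD replicate 1, Mock replicates 1 and 2), between 0.085 and 0.16 for Ndufb11 (FD replicates 2 and 3, Mock replicates 2 and 3), and between 0.064 and 0.12 for Cox7a2l (FD replicates 2 and 3 and each Mock library). No member of complexes II, III and V passed, with changes from -0.08 to 0.16, from -0.08 to 0.10 and from -0.61 to 0.25. Without FD replicate 3, 4 nuclear members were higher and 2 lower, while 38.8% of all genes were called. With FD replicate 3 alone for FD, the median nuclear change was 0.14, against -0.14 over all genes. Changes were then 0.96 ± 0.12 for Ndufb4, 0.55 ± 0.10 for Ndufa7 and -0.69 ± 0.14 for Ndufs5, and that single library is assumed to vary like the other groups.

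Among the regulators, 2 changed by more than any member. Ppargc1a had 20.2 ± 3.10 TPM in FD and 0.792 ± 0.0435 TPM in Mock libraries, a ratio of 25.5 (SD, n = 3; adjusted p = 2e-09), and Ppara, the fatty acid receptor of the fasting response, had 33.0 ± 4.89 TPM in FD and 2.13 ± 0.325 TPM in Mock libraries (ratio 15.5, adjusted p = 1.2e-09). Nrf1 was lower in FD, at 13.5 ± 0.334 against 19.1 ± 1.60 TPM (-0.47, adjusted p = 0.00083), as was Tfam, at 22.2 ± 0.503 against 36.2 ± 6.86 TPM (-0.67, adjusted p = 0.0021). Esrra (14.3 ± 3.07 TPM in FD, 15.9 ± 0.921 in Mock) and Gabpa (64.6 ± 15.1 in FD, 80.8 ± 1.51 in Mock) did not pass. In the list of 14 tested regulators 2 rose and 6 fell (57.1% called, where 41.1% of all genes were, median -0.27).

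Of 29 genes for mitochondrial DNA and RNA handling, 10 fell and none rose (median -0.24), 34.5% called where 29.9% of all genes were lower, including Twnk, the mitochondrial DNA helicase, at a ratio of 0.514 (adjusted p = 4.6e-05). Of 79 mitochondrial ribosome genes, 24 fell and 2 rose, with a median of -0.15, the same as over all genes. With single libraries left out, the lower calls were between 5 and 9 for DNA and RNA handling and between 14 and 25 for the ribosome. In the TCA cycle, 5 of 13 genes rose and 1 fell (46.2% called, where 41.1% of all genes were). Fh1 (fumarase) rose by a ratio of 2.20 and Idh3a (isocitrate dehydrogenase subunit) by 1.86, both called without each single library. The assembly factors of complex I had 0 genes higher and 3 lower of 17 (17.6% called, median -0.06). Those of complexes II to V had 1 higher and 9 lower of 35 (28.6% called, median -0.15). Both shares were below the 41.1% of all genes called. With single libraries left out the lower calls were between 1 and 3 for complex I and between 5 and 10 for complexes II to V. A list of 13 subunits and carriers, all but Atp5mpl outside the symbol patterns, had 3 higher and 2 lower (38.5% called, median 0.18). It was led by Higd1a, a hypoxia-induced factor of complexes III and IV, at 124 ± 15.4 TPM in FD and 69.7 ± 5.86 TPM in Mock libraries (0.82, adjusted p = 4.9e-05).

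The comparison of FDMn with FD asks what manganese added to the forskolin and dexamethasone response. Of all genes 15.1% were called, 7.22% higher and 7.9% lower in FDMn. Of the 79 nuclear members none rose and 6 fell (median -0.07, against 0.00 over all genes). The share of nuclear members called lower, 7.59%, was near that of all genes. Of the 13 mitochondrial members mt-Nd3, mt-Nd2 and mt-Atp6 rose and mt-Co1 fell (median 0.01). The others did not pass: mt-Atp8 was at 0.31, mt-Cytb at 0.16, mt-Co2 at 0.11, mt-Co3 at 0.01, mt-Nd1 at -0.01, mt-Nd4 at -0.06, mt-Nd4l at -0.11, mt-Nd6 at -0.17 and mt-Nd5 at -0.28.

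mt-Nd3 had 1983, 1730 and 2024 TPM in FDMn libraries and 1162, 1312 and 1517 TPM in FD libraries (0.53 ± 0.09, adjusted p = 0.0017). All FDMn libraries were above all FD libraries and also above the Mock range of 1620 to 1683 TPM. mt-Nd2, a proton-pumping complex I subunit, had 17744, 16738 and 16760 TPM in FDMn libraries and 13150, 15282 and 13452 TPM in FD libraries (0.29 ± 0.08, adjusted p = 0.022). mt-Atp6, the membrane subunit through which protons return in complex V, had 17334, 17407 and 18334 TPM in FDMn and 13689, 14872 and 15312 TPM in FD libraries (0.28 ± 0.06, adjusted p = 0.012). The groups of these 3 called genes did not overlap, which was not counted over all genes. The call of mt-Nd3 held without each single library, that of mt-Atp6 was lost without FDMn replicate 3 (adjusted p = 0.053), and that of mt-Nd2 without FD replicate 1, FDMn replicate 1 or FDMn replicate 3 (between 0.051 and 0.086).

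mt-Co1 had 17888, 16467 and 16575 TPM in FDMn libraries and 20098, 22774 and 19822 TPM in FD libraries (-0.30 ± 0.09, adjusted p = 0.036). With its nuclear copy added by length, it had 21897, 20135 and 20041 TPM in FDMn and 22747, 26629 and 24167 TPM in FD libraries, and the call was lost (-0.24 ± 0.08, adjusted p = 0.060). The call was also lost in 5 of the 6 fits that leave out a library, all but that without FD replicate 3 (adjusted p between 0.059 and 0.12). As a share of the mitochondrial sum, however, mt-Co1 was lower in every FDMn library, at 11.5%, 11.2% and 11.1%, than in any FD library, at 15.2%, 14.8% and 13.5%. With the copy counted in, the shares were 13.7%, 13.4% and 13.1% in FDMn and 16.8%, 16.9% and 16.0% in FD libraries, a change of -0.30 ± 0.04 (adjusted p = 0.00051) at an equal sum.

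The make-up of the mitochondrial pool also differed. The equal sum was chosen after seeing the data and was not refitted without FD replicate 3. At an equal sum mt-Nd3 (0.47 ± 0.08, adjusted p = 0.0025), mt-Nd2 (0.23 ± 0.04, 0.0026), mt-Atp8 (0.25 ± 0.08, 0.044) and mt-Atp6 (0.21 ± 0.05, 0.018) were higher, and mt-Nd5 (-0.34 ± 0.05, 0.00081) and mt-Co1 (-0.36 ± 0.05, 0.00046) were lower. mt-Atp8 took 16.4%, 16.6% and 16.4% of the sum in FDMn libraries and 13.4%, 12.3% and 16.0% in FD libraries, with FD replicate 3 close to FDMn. mt-Nd5 took 4.98%, 5.01% and 5.17% of the sum in FDMn libraries, 6.36%, 6.55% and 6.35% in FD and 4.76%, 4.98% and 5.27% in Mock libraries. Its share in FDMn lay inside the Mock range and below every FD library. mt-Nd2 took 11.4%, 11.4% and 11.2% in FDMn, above every other library, where the highest share was 9.93%. All of these calls at TPM were lost with FD replicate 3 alone for FD, where no mitochondrial member passed.

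**Figure D4:**
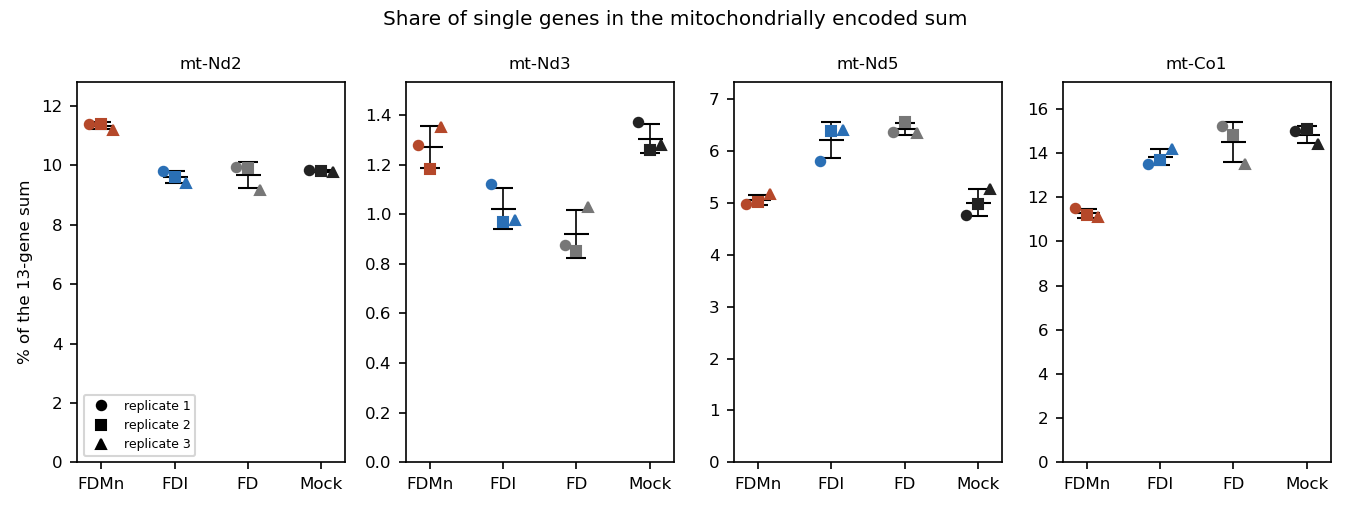
Share of mt-Nd2, mt-Nd3, mt-Nd5 and mt-Co1 in the summed TPM of the 13 mitochondrially encoded genes (y axes in percent, from 0), per library and group, with the mean and SD (n = 3). The FDMn libraries stand apart from the FD libraries in all 4 genes, and for mt-Nd2 (11.2% to 11.4%) and mt-Co1 (11.1% to 11.5%) also from the FDI and Mock libraries.

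The 6 nuclear members that fell in FDMn belong to complexes I, III and V. Ndufs6, a complex I subunit that binds zinc, had 218, 217 and 195 TPM in FDMn and 304, 296 and 221 TPM in FD libraries (-0.37 ± 0.11, adjusted p = 0.040). Uqcrb, of complex III, had 418, 435 and 425 TPM in FDMn and 596, 564 and 445 TPM in FD libraries (-0.32 ± 0.09, adjusted p = 0.028). In both genes FD replicate 3 was close to the FDMn libraries and the other FD libraries were far above. Without that library the changes were -0.52 ± 0.08 (adjusted p = 0.0014) for Ndufs6 and -0.44 ± 0.05 (adjusted p = 0.00023) for Uqcrb, and without any other single library the calls were lost (adjusted p between 0.077 and 0.14 for Ndufs6 and between 0.062 and 0.10 for Uqcrb). In Uqcrb 34.8% and in Ndufs6 15.1% of the 31-base words also occur in other genes.

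Ndufv1 and Ndufv2, which form the NADH-oxidizing tip of complex I, both fell. Ndufv1 had 99.2, 99.7 and 92.2 TPM in FDMn and 135, 112 and 109 TPM in FD libraries (-0.28 ± 0.08, adjusted p = 0.035), and Ndufv2 had 56.9, 60.6 and 63.0 TPM in FDMn and 68.1, 72.3 and 71.1 TPM in FD libraries (-0.23 ± 0.06, adjusted p = 0.027). In complex V, Atp5d, the delta subunit of the central stalk, had 273, 262 and 278 TPM in FDMn and 337, 296 and 313 TPM in FD libraries (-0.22 ± 0.06, adjusted p = 0.028). Atp5a1, the alpha subunit of the head, had 318, 345 and 327 TPM in FDMn and 376, 356 and 366 TPM in FD libraries (-0.15 ± 0.05, adjusted p = 0.044). The groups of all 4 called genes were apart, which was not counted over all genes. Leaving out FD replicate 1 or single FDMn libraries ended the calls of Ndufv1 and Atp5d (adjusted p between 0.053 and 0.12), leaving out FD replicate 2 or FDMn replicate 1 or 2 ended that of Ndufv2 (between 0.068 and 0.11), and leaving out FD replicate 1 or 3 or FDMn replicate 1 or 3 ended that of Atp5a1 (between 0.057 and 0.16).

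No member of complexes II and IV passed, with changes from -0.15 to 0.18 and from -0.38 to 0.55. Without FD replicate 3, 3 nuclear members were higher (Atp5k, Cox7a2 and Ndufc2) and 8 lower, and 4 mitochondrial members were higher and 1 lower. Of all genes 17.5% were called in that fit. With FD replicate 3 alone for FD, fewer of all genes were called than in the main fit. The median nuclear change was then -0.15, against -0.01 over all genes. Changes were -0.71 for Ndufb4, -0.37 for Atp5l and -0.32 for Sdhd. Around the chain, 5 of 13 TCA cycle genes fell and none rose (median -0.23), among them Ogdh at 60.8 ± 2.72 TPM in FDMn and 75.0 ± 5.07 TPM in FD libraries (-0.30, adjusted p = 0.0073), the 2-oxoglutarate dehydrogenase subunit, called without each single library. Etfdh, which passes electrons from fatty acid oxidation to ubiquinone, fell to 42.3 ± 1.78 TPM in FDMn, against 58.7 ± 2.41 TPM in FD libraries (-0.46, adjusted p = 0.0011). Ppargc1a, at 14.5 ± 1.24 TPM in FDMn and 20.2 ± 3.10 TPM in FD libraries, did not pass (-0.44, adjusted p = 0.057), nor did any of the other 13 regulators tested, Nrf1 (15.9 ± 0.358 TPM in FDMn, 13.5 ± 0.334 in FD) among them. Tfam, at 27.6 ± 1.79 TPM in FDMn and 22.2 ± 0.503 TPM in FD libraries, did not pass either. The remaining lists had few calls: 2 higher and 2 lower of 35 assembly factors of complexes II to V, 1 higher of 17 for complex I, 1 higher of 29 for DNA and RNA handling, 2 lower of 13 listed subunits and carriers, and 4 higher and 3 lower of 79 ribosome genes (medians -0.01, -0.06, 0.03, -0.10 and 0.04). Called shares were 38.5% for the TCA cycle and 11.4%, 5.88%, 3.45%, 15.4% and 8.86% for these lists, where 15.1% of all genes were called. With single libraries left out, the lower TCA cycle calls were between 1 and 5, those of complexes II to V assembly 0 to 4 higher and 0 to 2 lower, and the higher ribosome calls 1 to 6. The complex I assembly call, Ndufaf4, was lost in all 6 of these fits.

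The comparison of FDI with FD asks what insulin did to the same response. All 13 mitochondrial members were below 0 (median -0.24, against 0.04 over all genes), with 3 called lower and none higher. Of the 79 nuclear members 1 was called in each direction (median 0.09, and 0.00 with FD replicate 3 alone for FD). Of all genes 14.5% were called, 10.2% higher and 4.35% lower in FDI. Under quantile normalization 3 of the 13 mitochondrial changes were above 0, and at an equal mitochondrial sum no member was called, and no difference in the make-up of the pool was called. Leaving out FDI replicate 1, which had the lowest mitochondrial sum, ended all 3 mitochondrial calls. Without FD replicate 3, 4 mitochondrial members were lower and none higher, and with it alone for FD none was called.

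mt-Cytb, the only complex III subunit of the mitochondrial genome, had 5690, 6653 and 6267 TPM in FDI libraries and 7436, 8795 and 7039 TPM in FD libraries (-0.32 ± 0.08, adjusted p = 0.020). mt-Nd1 had 10033, 12045 and 11090 TPM in FDI libraries and 12655, 14342 and 12844 TPM in FD libraries (-0.27 ± 0.07, adjusted p = 0.020). mt-Co1 had 14597, 18592 and 18035 TPM in FDI libraries and 20098, 22774 and 19822 TPM in FD libraries (-0.30 ± 0.09, adjusted p = 0.039). In all 3 genes every FDI library was below every FD library. Besides FDI replicate 1, leaving out FD replicate 2 or FDI replicate 3 ended these calls, and for mt-Co1 also FD replicate 1 (adjusted p between 0.051 and 0.13). With its nuclear copy added, mt-Co1 no longer passed (-0.22 ± 0.08, adjusted p = 0.086). The other 10 members did not pass: mt-Nd4l was at -0.40, mt-Nd4 at -0.30, mt-Nd5 at -0.28, mt-Nd2 at -0.24, mt-Co2 at -0.20, mt-Atp6 at -0.15, mt-Nd6 at -0.13, mt-Atp8 and mt-Co3 at -0.09 and mt-Nd3 at -0.08.

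The nuclear calls were both genes of the c subunit of complex V, the membrane ring that turns as protons pass. Atp5g1, Atp5g2 and Atp5g3 encode the same mature c subunit with different import sequences, and they differed in level and in direction. Atp5g1 had 191, 155 and 168 TPM in FDI libraries and 120, 97.0 and 149 TPM in FD libraries (0.50 ± 0.12, adjusted p = 0.018). Atp5g2 had 45.8, 50.7 and 39.8 TPM in FDI libraries and 61.0, 53.3 and 73.2 TPM in FD libraries (-0.45 ± 0.13, adjusted p = 0.045). Atp5g3, the most abundant, had 331, 307 and 318 TPM in FDI libraries and 297, 289 and 313 TPM in FD libraries and did not pass. The sum of the 3 genes was 536 ± 28.6 TPM in FDI and 484 ± 48.2 TPM in FD libraries (SD, n = 3). The call of Atp5g1 was lost without FD replicate 1, FDI replicate 1 or FDI replicate 3 (adjusted p between 0.050 and 0.078), and that of Atp5g2 without these or FD replicate 3 (between 0.092 and 0.16). In Atp5g2 40.2% and in Atp5g1 14.1% of the 31-base words also occur in other genes.

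The promoters of the c subunit genes are shown because the genes did not move together. Each sequence runs 5′ to 3′ from 250 bases before to 50 bases after the annotated start, from RefSeq on GRCm38.p6, and capitals mark a match to the palindromic NRF1 motif, in its full form or with any bases in its middle. Atp5g2 holds the full motif, beginning 42 bases before the start, Atp5g3 holds a match with another middle, beginning at base 13 after the start, and Atp5g1 holds no match in this window.
Atp5g1, chr11:96075582-96075881, minus strand: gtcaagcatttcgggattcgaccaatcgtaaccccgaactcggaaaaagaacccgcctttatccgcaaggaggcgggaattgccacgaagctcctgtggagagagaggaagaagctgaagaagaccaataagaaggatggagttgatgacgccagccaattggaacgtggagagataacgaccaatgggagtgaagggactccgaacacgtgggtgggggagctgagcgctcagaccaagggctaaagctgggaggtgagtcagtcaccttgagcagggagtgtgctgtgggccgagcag
Atp5g2, chr15:102670998-102671297, minus strand: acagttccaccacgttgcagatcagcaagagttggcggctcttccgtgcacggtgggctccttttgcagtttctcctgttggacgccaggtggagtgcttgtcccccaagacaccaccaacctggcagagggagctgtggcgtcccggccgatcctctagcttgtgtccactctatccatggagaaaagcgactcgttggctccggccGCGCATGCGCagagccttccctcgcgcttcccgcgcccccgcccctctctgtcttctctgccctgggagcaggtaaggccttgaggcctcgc
Atp5g3, chr2:73911277-73911576, minus strand: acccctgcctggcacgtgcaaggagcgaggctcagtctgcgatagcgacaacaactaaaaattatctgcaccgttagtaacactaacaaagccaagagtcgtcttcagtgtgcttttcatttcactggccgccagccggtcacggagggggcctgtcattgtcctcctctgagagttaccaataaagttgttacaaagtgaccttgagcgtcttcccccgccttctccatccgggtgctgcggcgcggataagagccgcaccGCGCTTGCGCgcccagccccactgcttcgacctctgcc

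Of the 85 nuclear members 66 matched a RefSeq promoter window. On either strand, the full NRF1 motif was in 5 of the 66 (7.58%), against 1.07% of 27025 genes, and the form with a free middle, which includes it, was in 18 (27.3%, against 7.0%). The GABPA motif CCGGAAG was in 16 (24.2%, against 9.93%), the YY1 motif AAGATGGC in 9 (13.6%, against 3.19%) and the CREB motif TGACGTCA in 4 (6.06%, against 2.03%). The 4 with the CREB motif, Ndufa10, Ndufa11, Ndufb2 and Uqcrfs1, were not called in FD against Mock, like 74 of the 79 nuclear members tested. These are matches of letters and describe the sequence only.

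The count of nuclear members called in FDI against FD depended on FD replicate 3 more than any other result. Without it 16 nuclear members were higher and 4 lower. Calls over all genes rose as well, from 14.5% to 18.4%, with 1438 of 11544 genes higher and 683 lower. Among the higher members were Atp5g1 (0.66 ± 0.10, adjusted p = 0.0013), Cox7a2 (0.42 ± 0.07, 0.0024) and Sdhd, a membrane anchor of complex II (0.35 ± 0.06, 0.0026). Among the lower members were Ndufs5 (-0.50 ± 0.11, 0.0089) and Uqcrb (-0.34 ± 0.05, 0.0011). With FD replicate 3 alone for FD, fewer of all genes were called than in the main fit. The changes were then 0.20 for Atp5g1, -0.01 for Cox7a2, -0.05 for Sdhd, 0.20 for Ndufs5 and 0.04 for Uqcrb. They were -0.68 for Atp5g2 and -0.53 for Ndufb4. Among the regulators, Esrra was higher at 19.6 ± 0.432 TPM in FDI and 14.3 ± 3.07 TPM in FD libraries (0.45, adjusted p = 0.031), and Gabpa lower at 41.1 ± 5.55 TPM in FDI and 64.6 ± 15.1 TPM in FD libraries (-0.62, adjusted p = 0.011), while Ppargc1a had 20.4 ± 4.34 TPM in FDI and 20.2 ± 3.10 TPM in FD libraries. Nrf1 (16.2 ± 1.46 TPM in FDI, 13.5 ± 0.334 in FD) and Tfam (24.1 ± 4.53 TPM in FDI, 22.2 ± 0.503 in FD) did not pass. Leaving out single FDI libraries ended the call of Esrra (adjusted p up to 0.087) and, for FDI replicate 1, that of Gabpa (0.053). Of the 79 mitochondrial ribosome genes 12 rose and none fell (median 0.13), 15.2% called where 10.2% of all genes were higher, with 3 to 18 higher when single libraries were left out and 18 without FD replicate 3. The other lists had 5 higher and 1 lower of 35 (assembly of complexes II to V), 2 higher of 17 (assembly of complex I), 3 higher of 29 (DNA and RNA handling), 1 higher of 13 (TCA cycle, Mdh2) and none of 13 listed subunits and carriers, with medians of 0.11, 0.00, 0.15, 0.01 and 0.00. Their called shares were 17.1%, 11.8%, 10.3%, 7.69% and 0.0%, where 14.5% of all genes were called. With single libraries left out, the higher calls were 1 to 6 for the assembly of complexes II to V, 1 to 2 for that of complex I and 0 to 2 for DNA and RNA handling. The list of regulators had 2 higher and 1 lower (median 0.05), and 0 to 3 higher with single libraries left out.

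The comparison of FDMn with FDI sets manganese beside insulin under the same forskolin and dexamethasone, and it uses no FD library. Here 7 mitochondrial members were higher and none lower in FDMn, and 10 nuclear members were lower and none higher. Of all genes 17.6% were called, 5.68% higher and 11.9% lower, so the share of nuclear members called lower, 12.7%, was near that of all genes. With any single library left out, 3 to 7 nuclear members were lower and 4 to 8 mitochondrial members higher. Nuclear members called lower numbered 6 under median-of-ratios scaling, 4 under rescaling over nuclear genes and 1, with 1 higher, under quantile normalization. The medians were 0.30 for the mitochondrial members, -0.14 for the nuclear members and -0.04 for all genes. Of the 79 nuclear members 70 were below 0, and 68, 66 and 53 were under median-of-ratios scaling, rescaling over nuclear genes and quantile normalization. The summed cholangiocyte markers moved with this comparison (1412 to 1606 TPM in FDMn, 762 to 809 TPM in FDI), and their part in it was not tested. The summed hepatocyte markers differed as well (33995 to 34632 TPM in FDMn, 29108 to 29716 TPM in FDI), and their part was not tested either.

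The mitochondrial calls were led by mt-Nd3, with 1983, 1730 and 2024 TPM in FDMn libraries and 1210, 1318 and 1240 TPM in FDI libraries (0.60 ± 0.09, adjusted p = 0.00060). mt-Nd2 had 17744, 16738 and 16760 TPM in FDMn and 10577, 13048 and 11900 TPM in FDI libraries (0.53 ± 0.08, adjusted p = 0.00053). mt-Cytb had 8902, 8193 and 8718 TPM in FDMn and 5690, 6653 and 6267 TPM in FDI libraries (0.47 ± 0.08, adjusted p = 0.0018). mt-Atp6 had 17334, 17407 and 18334 TPM in FDMn and 12232, 14068 and 13387 TPM in FDI libraries (0.42 ± 0.06, adjusted p = 0.00076). All FDMn libraries were above all FDI libraries in these genes, and the calls held without each single library. mt-Atp8 (0.40 ± 0.11, adjusted p = 0.028), mt-Co2 (0.31 ± 0.09, 0.039) and mt-Nd1 (0.26 ± 0.07, 0.020) also passed, but their calls were lost without FDI replicate 1 or several other libraries: for mt-Atp8 each FDMn library, for mt-Co2 FDI replicate 3 and each FDMn library, and for mt-Nd1 FDI replicate 3 and FDMn replicates 1 and 3 (adjusted p between 0.052 and 0.14). mt-Co1, mt-Nd5 and mt-Nd6 had nearly equal means in the groups: 16977 ± 791 TPM in FDMn and 17075 ± 2160 TPM in FDI libraries for mt-Co1, 7606 ± 219 TPM in FDMn and 7688 ± 1270 TPM in FDI for mt-Nd5, and 107 ± 36.3 TPM in FDMn and 107 ± 25.1 TPM in FDI for mt-Nd6. mt-Co3 (0.10), mt-Nd4 (0.24) and mt-Nd4l (0.30) did not pass.

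At an equal mitochondrial sum 4 genes were called. mt-Nd2 (0.24 ± 0.04, adjusted p = 0.0018) and mt-Nd3 (0.31 ± 0.08, 0.021) were higher and mt-Co1 (-0.29 ± 0.05, 0.0014) and mt-Nd5 (-0.29 ± 0.05, 0.0020) lower in FDMn. With the nuclear copy counted in, mt-Co1 took 13.7%, 13.4% and 13.1% of the sum in FDMn and 16.7%, 16.1% and 16.8% in FDI libraries (-0.30 ± 0.04, adjusted p = 0.00041). mt-Nd1, called higher in TPM, was at -0.03 at an equal sum and was not called. The calls of mt-Nd2 and mt-Nd3 held in each of the 16 alternatives tried. Both comparisons use the FDMn libraries, so these are not independent measurements.

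Complex V held 6 of the 10 nuclear members that were lower in FDMn, 35.3% of its 17 tested members, where 11.9% of all genes were lower. Quantile normalization ended the calls of Atp5a1, Atp5b, Atp5g1, Atp5g3 and Atp5o. Rescaling over nuclear genes ended those of Atp5a1, Atp5b and Atp5g1, and median-of-ratios scaling those of Atp5a1 and Atp5g1. Atp5d had 273, 262 and 278 TPM in FDMn libraries and 368, 333 and 334 TPM in FDI libraries (-0.35 ± 0.06, adjusted p = 0.0018), a call that held in each of 13 alternatives. Atp5g3 had 274, 271 and 271 TPM in FDMn and 331, 307 and 318 TPM in FDI libraries (-0.23 ± 0.05, adjusted p = 0.0063), and Atp5g1 had 129, 133 and 125 TPM in FDMn and 191, 155 and 168 TPM in FDI libraries (-0.40 ± 0.12, adjusted p = 0.044). Atp5g2, at 54.6, 48.3 and 40.1 TPM in FDMn and 45.8, 50.7 and 39.8 TPM in FDI libraries, overlapped. Atp5o, the stalk subunit that confers oligomycin sensitivity, was at 160 ± 4.51 TPM in FDMn and 186 ± 8.26 TPM in FDI libraries (-0.22 ± 0.05, adjusted p = 0.017). The head subunits Atp5b (485 ± 11.9 TPM in FDMn, 565 ± 8.57 TPM in FDI) and Atp5a1 (330 ± 13.7 TPM in FDMn, 371 ± 6.54 TPM in FDI) changed by -0.22 ± 0.06 (adjusted p = 0.025) and -0.17 ± 0.05 (0.024).

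In complex III, Cyc1, the cytochrome c1 subunit that passes electrons to cytochrome c, had 137, 141 and 145 TPM in FDMn libraries and 159, 180 and 169 TPM in FDI libraries (-0.26 ± 0.07, adjusted p = 0.021). In complex I, Ndufa9, an accessory subunit at the quinone site, had 52.2, 52.2 and 47.0 TPM in FDMn and 63.4, 58.3 and 66.4 TPM in FDI libraries (-0.31 ± 0.07, adjusted p = 0.013). Ndufb11 (59.1, 62.1 and 58.7 TPM in FDMn, 73.7, 72.3 and 65.4 TPM in FDI) and Ndufv3 (73.1 ± 8.02 TPM in FDMn, 91.1 ± 8.66 TPM in FDI) passed narrowly (adjusted p = 0.043 and 0.049). The groups of all 10 called genes were apart, which was not counted over all genes. Leaving out single libraries spared the calls of Atp5d and Atp5g3. It ended those of Atp5o (FDI replicate 1, FDMn replicate 1) and Ndufa9 (FDI replicate 3, FDMn replicate 3) with adjusted p between 0.055 and 0.068, and those of Cyc1, Atp5a1, Atp5b, Atp5g1, Ndufb11 and Ndufv3 in 4 to 6 of 6 fits (between 0.054 and 0.19). All 14 tested members of complex IV were below 0, from -0.25 to -0.04, and none passed, as none of complex II did (-0.27 to 0.07).

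**Figure D5:**
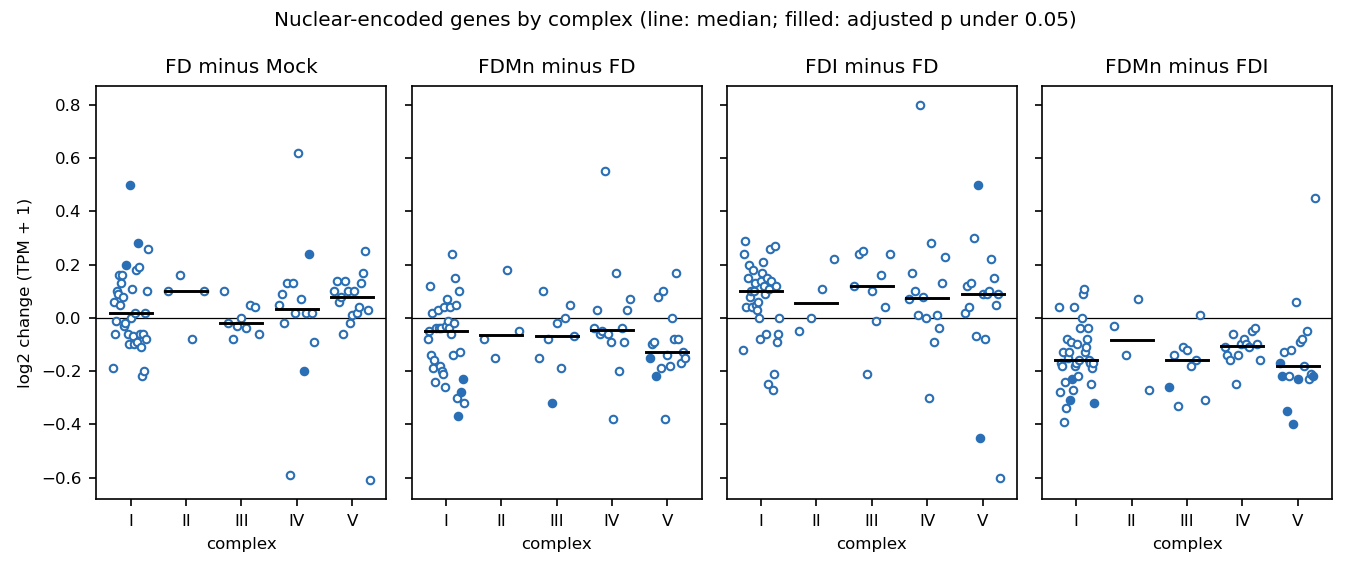
Log2 change (y axis, on the TPM + 1 scale) of each tested nuclear-encoded member, by complex, in the 4 comparisons; the black line is the median of the complex and filled points passed an adjusted p of 0.05. The medians of the 5 complexes lie between -0.02 and 0.10 in FD minus Mock and between -0.18 and -0.08 in FDMn minus FDI, where 6 of the 10 called members are in complex V.

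Around the chain, FDMn was lower than FDI in 12 of 79 mitochondrial ribosome genes and higher in 2 (median -0.13). This called share, 17.7%, was near the 17.6% of all genes. FDMn was lower in 3 of 13 TCA cycle genes (23.1%, where 11.9% of all genes were lower, median -0.15), among them Idh3a at 31.6 ± 1.21 TPM in FDMn and 42.0 ± 1.59 TPM in FDI libraries (-0.40, adjusted p = 0.0014). Leaving out single libraries brought the ribosome calls to between 4 and 8 lower. Ppargc1a was at 14.5 ± 1.24 TPM in FDMn and 20.4 ± 4.34 TPM in FDI libraries (-0.45, adjusted p = 0.049), a call lost in 5 of the 6 fits that leave out a library (adjusted p up to 0.18). The other lists had 4 lower of 13 subunits and carriers, 1 lower of 17 and 4 lower of 35 assembly factors, and 1 higher and 4 lower of 29 DNA and RNA handling genes (medians -0.18, -0.07, -0.09 and -0.04). Their called shares were 30.8%, 5.88%, 11.4% and 17.2%. With any single library left out the lower calls were 1 to 3 for the subunits and carriers, 0 to 1 and 1 to 3 for the assembly factors of complex I and of complexes II to V, and 0 to 1 for DNA and RNA handling. Nrf1 (15.9 ± 0.358 TPM in FDMn, 16.2 ± 1.46 in FDI) and Tfam (27.6 ± 1.79 TPM in FDMn, 24.1 ± 4.53 in FDI) did not pass. Among these, Etfdh had 42.3 ± 1.78 TPM in FDMn and 53.1 ± 2.01 TPM in FDI libraries (-0.32, adjusted p = 0.0093).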

How the data were processed

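The deposited table holds TPM values per gene and library, made by the authors with kallisto 0.44.0 on GRCm38.p6, per the submitters' processing notes, which also name DESeq2 without its role. Libraries were poly-A selected, per the labels' protocols. Neither the annotation release nor the strand setting is stated by those notes. TPM keeps no read depth, so no count test, interval or floor was possible.

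Members were chosen by symbol, and the supporting lists by name, with earlier results of these data known. Genes with at least 1 TPM in at least 3 of 12 libraries (11544) were tested on log2(TPM + 1) with limma 3.58.1 (R 4.3.3; moderated, with trend, two-sided), 1 term per group over all 12 libraries, and Benjamini-Hochberg adjustment over all genes tested. Names in the text were drawn from a rule, not every gene of which is named: the called nuclear members with the highest and lowest change per complex, all mitochondrial members, isoform families, up to 3 genes per supporting list with the smallest adjusted p, and Ppargc1a, Nrf1, Gabpa, Esrra and Tfam; Ndufs5, other calls and the genes that moved with FD replicate 3 were added after their values were seen. The fit was tested on simulated data. Shared 31-base words, the length kallisto uses, were counted in GENCODE M21 transcripts. Alternatives were other scalings (median of ratios, quantile, rescaling over nuclear genes), a pseudocount of 0.1, no filter, the 2 groups alone, a replicate block, and leaving out libraries. The equal mitochondrial sum and the added nuclear copies were chosen after seeing the data. No pairing by replicate number was used. A gene that the naming rule selects is not reported here.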

Additional observations from a re-analysis of the deposited data

How the results depend on the processing

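The counts of members called moved with the processing in every comparison. Calls over all genes moved as well. Main shares were 41.1%, 15.1%, 14.5% and 17.6% in FD against Mock, FDMn against FD, FDI against FD and FDMn against FDI. In that order they were 20.4%, 6.77%, 6.16% and 7.72% with no filter. With the 2 groups alone they were 32.4%, 10.3%, 8.53% and 20.7%. Median-of-ratios scaling gave 34.9%, 15.3%, 13.4% and 16.0%, and quantile normalization 34.5%, 15.1%, 12.9% and 15.1%. Each set of 4 counts gives nuclear members higher and lower, then mitochondrial members higher and lower, and a pair gives the mitochondrial members. For FD against Mock the main counts were 4, 1, 5 and 1, and they were 33, 0, 11 and 0 with median-of-ratios scaling, 10, 0, 4 and 1 with quantile normalization, 9, 0, 5 and 1 with rescaling over nuclear genes, 4, 1, 5 and 1 with a pseudocount of 0.1, 1, 0, 1 and 1 with no filter. They were 1, 0, 3 and 1 with the 2 groups alone, 14, 5, 3 and 0 with FD replicate 3 alone for FD, 1 and 1 with an equal mitochondrial sum, 5 and 1 with nuclear copies added, 1 and 1 with both of these. Without single libraries they were 2 to 9, 0 to 2, 3 to 7 and 1 to 1. The replicate block gave 3, 1, 5 and 1. For FDMn against FD the main counts were 0, 6, 3 and 1, and they were 0, 7, 3 and 1 with median-of-ratios scaling, 1, 3, 1 and 2 with quantile normalization, 1, 7, 3 and 0 with rescaling over nuclear genes, 0, 6, 3 and 1 with a pseudocount of 0.1, 0, 3, 1 and 0 with no filter. They were 0, 0, 3 and 1 with the 2 groups alone, 0, 3, 0 and 0 with FD replicate 3 alone for FD, 4 and 2 with an equal mitochondrial sum, 3 and 0 with nuclear copies added, 4 and 2 with both of these. Without single libraries they were 0 to 3, 0 to 8, 1 to 4 and 0 to 1. The replicate block gave 0, 5, 3 and 1. For FDI against FD the main counts were 1, 1, 0 and 3, and they were 1, 2, 0 and 5 with median-of-ratios scaling, 2, 3, 0 and 0 with quantile normalization, 1, 2, 0 and 4 with rescaling over nuclear genes, 2, 1, 0 and 3 with a pseudocount of 0.1, 0, 0, 0 and 0 with no filter. They were 0, 0, 0 and 0 with the 2 groups alone, 0, 2, 0 and 0 with FD replicate 3 alone for FD, 0 and 0 with an equal mitochondrial sum, 0 and 2 with nuclear copies added, 0 and 0 with both of these. Leaving out single libraries gave 0 to 16, 0 to 4, 0 to 0 and 0 to 7. The replicate block gave 1, 0, 0 and 5. For FDMn against FDI the main counts were 0, 10, 7 and 0, and they were 0, 6, 7 and 0 with median-of-ratios scaling, 1, 1, 3 and 0 with quantile normalization, 0, 4, 7 and 0 with rescaling over nuclear genes, 0, 9, 7 and 0 with a pseudocount of 0.1, 0, 7, 4 and 0 with no filter. They were 0, 17, 7 and 0 with the 2 groups alone, 2 and 2 with an equal mitochondrial sum, 7 and 0 with nuclear copies added, 3 and 2 with both of these. Leaving out single libraries gave 0 to 0, 3 to 7, 4 to 8 and 0 to 0. The replicate block gave 0, 7, 7 and 0. None of 18 correlations between libraries of the same number was over 0.1 (-0.098 to 0.068). This cannot show whether libraries of the same number had a common origin, which the labels do not state. In FDMn against FDI, mt-Nd1 changed direction, to -0.03 at an equal mitochondrial sum and -0.02 with copies added as well. Of the members called, 1 of 11, 0 of 10, 0 of 5 and 3 of 17 kept their calls under all alternatives in the order of comparisons above. The cause of these shifts was not tested, and TPM gives no depth from which to judge low values.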
